A study of Mus musculus with 6 samples.

Results

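The 8 genes described here encode the creatine kinases and the other proteins of the creatine cycle: *Ckb*, *Ckm*, *Ckmt1*, *Ckmt2*, *Gatm*, *Gamt*, *Slc6a8* and *Alpl*. They were taken by symbol from the 47729 genes of the deposited tables, and all 8 were found in each of the 6 mice. The mice were male, wild type and of the C57BL/6J strain, and were fed from 6 to 10 weeks of age, so for 4 weeks, with either a high-fat diet (HFD, 45% fat) or a standard low-fat diet (LFD). Interscapular brown adipose tissue (BAT) of the right side was taken from 3 mice of each diet, which had the greatest, the medium and the least fat mass of their group, and its total RNA was sequenced after removal of ribosomal RNA. The comparison asks how the creatine genes of BAT differed between HFD-fed obese mice and LFD-fed lean mice.

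Creatine kinases move a phosphate group between ATP and creatine. *Ckb* encodes the cytosolic form of brain and many other tissues, *Ckm* the cytosolic form of muscle, *Ckmt1* the ubiquitous mitochondrial form and *Ckmt2* the mitochondrial form of striated muscle. GATM and GAMT make creatine in sequence, from arginine and glycine and then by a methyl transfer, and SLC6A8 carries creatine into the cell. In thermogenic fat, creatine has been described as part of a cycle in which phosphocreatine is made by CKB and hydrolysed by the phosphatase that *Alpl* encodes, so that ATP is spent as heat. In striated muscle, the muscle kinases buffer ATP during contraction.

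The kinases fell into 2 patterns. The muscle kinases *Ckm* and *Ckmt2* were lower in each HFD-fed mouse than in any LFD-fed mouse, by 90.7-fold and 91.5-fold. *Ckb* and the phosphatase gene *Alpl* were higher in each HFD-fed mouse than in any LFD-fed mouse, by 2.65-fold and 6.1-fold. In log2 CPM, 2 members were thus below and 2 above without overlap, where 9.23% and 6.72% of all tested genes were. *Gatm* and *Slc6a8* overlapped between the diets, *Gamt* was lower without overlap in TPM but overlapped in log2 CPM, and *Ckmt1* was at the limit of detection. None of the 7 tested genes was called by edgeR's quasi-likelihood test at a Benjamini-Hochberg adjusted p under 0.01 with a log2 fold change beyond 1.5 in either direction. The same test called 0% of 17668 genes lower and 0% higher, and the smallest adjusted p of any gene was 0.17. At an unadjusted p under 0.05, 2 members were lower and 2 were higher, where 6.62% of all tested genes were lower and 3.86% were higher. When replicate number entered the fit as a block, 3 members were lower and 2 higher, against 8.76% and 8.75% of all genes. The member added on the lower side was *Gamt*, which was also added without HFD-fed mouse 1, where 3 members were lower at an unadjusted p under 0.05 with edgeR, against 5.88% of the genes then tested. Without LFD-fed mouse 2, 1 member was higher, *Ckb*, against 2.68% of genes. Without LFD-fed mouse 3, 3 members were lower and 3 higher, with *Gamt* and *Slc6a8* added, against 9.55% and 7.7% of genes. DESeq2, the tool of the study, called 2 members lower and 0 higher, *Ckm* and *Ckmt2*, against 1.53% and 0.531% of the 19965 genes with an adjusted p.

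The libraries held between 17156991 and 21603487 rounded counts, and the mitochondrial genome took between 3.87% and 22.7% of them, with ranges that overlapped between the diets. Levels of different genes are set side by side in TPM (the transcript level as a share of all transcripts), which is per length, and diets are compared in log2 CPM, which is not per length and is scaled to the library by TMM. In bulk tissue, fewer cells of a type and less RNA per cell cannot be told apart. *Ucp1*, the uncoupling protein of brown adipocytes, was detected in each mouse, which alone does not show how much of a sample was brown fat. Its level was 2728, 4021 and 796 TPM in HFD-fed and 443, 11.03 and 76.0 TPM in LFD-fed mice 1 to 3, so LFD-fed mouse 2 held the least. Skeletal muscle markers ran the other way, with a summed level of 22.3 to 351.5 TPM in HFD-fed and 1984 to 13370 TPM in LFD-fed mice over 20 genes.

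**Figure D1:**
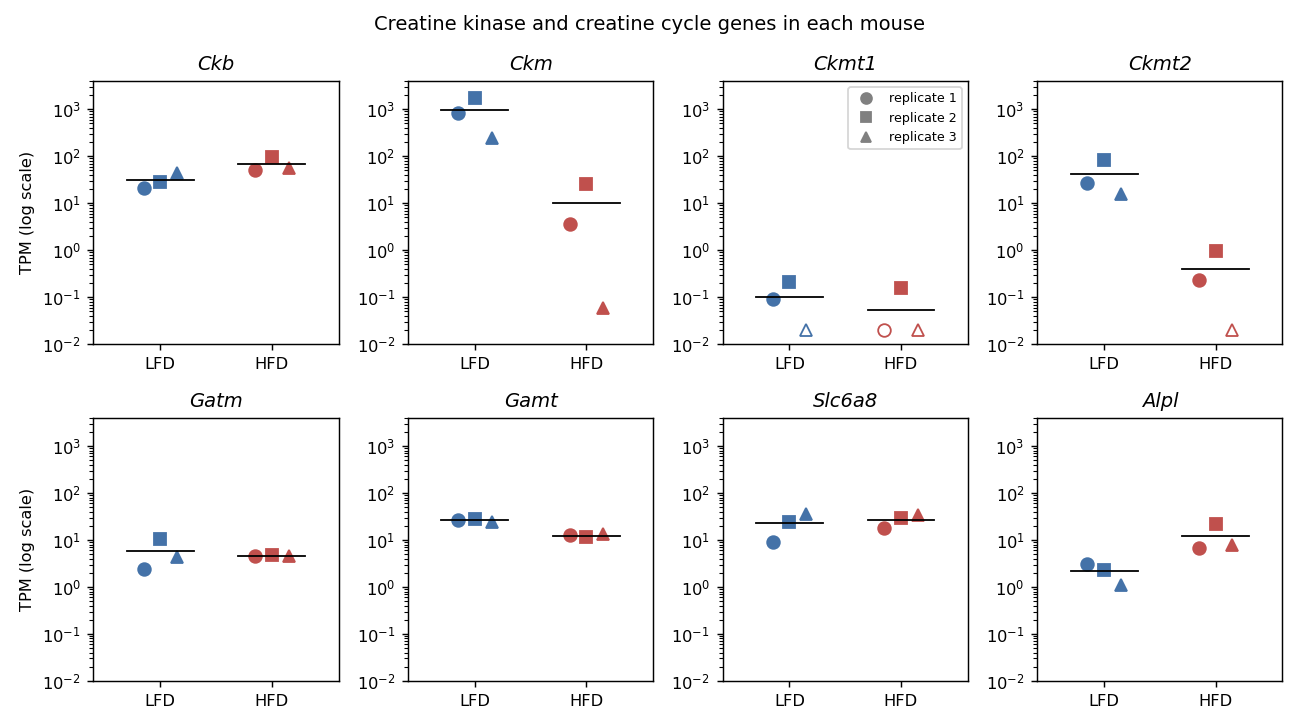
TPM on a log axis of each of the 8 genes in each mouse, with LFD in blue and HFD in red, a symbol for each replicate number, a bar at the diet mean, and open symbols at the foot of the axis for mice listed at 0. *Ckm* and *Ckmt2* lie in separate ranges in the diets, LFD above HFD, *Ckb* and *Alpl* lie in separate ranges with HFD above LFD, and *Gatm* and *Slc6a8* overlap.

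*Ckb* lies on chromosome 12 (chr12:111669361-111672338, minus strand, GRCm38, GENCODE M21). Its level was 51.4, 98.1 and 56.5 TPM in HFD-fed mice 1 to 3 and 21.1, 27.7 and 44.4 TPM in LFD-fed mice 1 to 3. The HFD-fed mice were all above the LFD-fed mice, with the narrowest gap between HFD-fed mouse 1 and LFD-fed mouse 3. Means were 68.7 ± 25.6 TPM and 31.1 ± 12.0 TPM (SD, n = 3 each), on 1377 to 2205 reads in HFD and 527 to 745 reads in LFD. The log2 fold change was 1.41 (SE 0.28), with an unadjusted p of 0.0018 and an adjusted p of 0.174 by edgeR's quasi-likelihood test. DESeq2 gave the same log2 fold change of 1.41 with an adjusted p of 0.00314, so the gene passed the threshold on p and not the one on the fold change. Of the 75-base windows of its transcripts, 5.82% also occur in the gene Gm12892, which was listed at 0 reads in all mice.

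*Ckm* lies on chromosome 7 (chr7:19404776-19422841, plus strand). Its level was 853, 1767 and 243 TPM in LFD-fed mice 1 to 3, which placed it at rank 97, 52 and 503 of all genes in these mice. In HFD-fed mice 1 to 3 it was 3.58, 26.3 and 0.06 TPM, at ranks 10218, 4205 and 23359. The lowest LFD-fed mouse was above the highest HFD-fed mouse, and the HFD-fed mice differed widely among themselves. The reads were 13508, 21724 and 2623 in LFD against 79, 371 and 2 in HFD. The count of 2 in HFD-fed mouse 3 has a 95% exact Poisson interval of 0.242 to 7.22, which like all such limits here covers counting error only. In that mouse RSEM used an effective length of 1904 bases, against 882 to 1005 bases in the other mice, so its TPM is lower for the same reads. The log2 fold change was -6.50 (SE 1.74), with an unadjusted p of 0.00771 and an adjusted p of 0.265 by edgeR. DESeq2 gave -6.51 with an adjusted p of 1.96e-05. The edgeR value was -8.20 without HFD-fed mouse 2 and -5.92 without HFD-fed mouse 3.

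Part of the *Ckm* reads could belong to an antisense gene, A930016O22Rik, which shares 451 of the 2913 exonic bases of *Ckm*. As a separate measure, 8.26% of the 75-base windows of *Ckm* also occur in that gene. That gene held 2, 5 and 5 reads in HFD-fed and 1, 65 and 17 reads in LFD-fed mice 1 to 3. Whether the counting used the strand is not given in the sources used here. These reads were few beside those of *Ckm* in the LFD-fed mice, but more than those of *Ckm* in HFD-fed mouse 3.

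*Ckmt2* lies on chromosome 13 (chr13:91853387-91876885, minus strand). It was at 26.8, 82.7 and 15.5 TPM in LFD-fed mice 1 to 3 and at 0.23, 0.97 and 0 TPM in HFD-fed mice 1 to 3. The diets were apart, and the order of the mice within each diet was that of *Ckm*. The reads were 672, 1625 and 262 in LFD against 7, 22 and 0 in HFD, and a count of 0 allows up to 3 reads by a one-sided limit. The log2 fold change was -6.52 (SE 1.22), with an unadjusted p of 0.00122 and an adjusted p of 0.173 by edgeR, and DESeq2 gave -6.52 with an adjusted p of 1.59e-07. The edgeR value was -7.86 without HFD-fed mouse 2, -5.90 without HFD-fed mouse 3 and -5.85 without LFD-fed mouse 2. The share of its windows found in another gene was 0.779%.

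*Ckmt1* (chr2:121357714-121363737, plus strand), the mitochondrial kinase of non-muscle tissues, had 0, 2 and 0 reads in HFD-fed and 1, 1 and 0 reads in LFD-fed mice 1 to 3. It was at most 0.21 TPM, was not tested and has no fold change. At this depth no difference was detectable.

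The promoters of 3 kinases are shown because the muscle kinases differed together and *Ckb* differed in the opposite direction. Each is the 250 bases before the RefSeq start, on the strand of the gene and in GRCm38.p6: chr12:111672339-111672588 for *Ckb*, chr7:19410844-19411093 for *Ckm* and chr13:91876886-91877135 for *Ckmt2*. Capitals mark CAGCTG (one form of the E-box, CANNTG, that muscle regulatory factors bind), TATAAA and CCAAT, each searched on both strands, so that CCAAT on the other strand reads ATTGG. The motifs were chosen with the sequences in view, and a match is a description of the letters, not a bound site.
Ckb: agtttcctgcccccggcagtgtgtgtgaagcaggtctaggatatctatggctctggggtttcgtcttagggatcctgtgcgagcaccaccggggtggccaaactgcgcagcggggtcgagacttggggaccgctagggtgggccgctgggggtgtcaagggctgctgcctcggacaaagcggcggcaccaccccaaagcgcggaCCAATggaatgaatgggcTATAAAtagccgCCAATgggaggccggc
Ckm: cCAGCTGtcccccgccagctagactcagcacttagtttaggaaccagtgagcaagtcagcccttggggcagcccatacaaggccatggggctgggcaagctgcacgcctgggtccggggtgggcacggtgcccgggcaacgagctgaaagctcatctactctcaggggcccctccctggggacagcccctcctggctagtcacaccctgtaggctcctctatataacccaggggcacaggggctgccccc
Ckmt2: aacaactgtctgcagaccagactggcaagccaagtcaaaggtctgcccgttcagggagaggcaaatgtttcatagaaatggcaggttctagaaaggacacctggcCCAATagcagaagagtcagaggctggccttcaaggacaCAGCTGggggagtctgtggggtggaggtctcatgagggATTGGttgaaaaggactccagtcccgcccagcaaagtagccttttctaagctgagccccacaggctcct

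The *Ckb* promoter held TATAAA once, beginning 28 bases before the start, and CCAAT at 46 and 16 bases before it, and no CANNTG. The *Ckm* promoter held CAGCTG once, 249 bases before the start, and the *Ckmt2* promoter held it once, 107 bases before the start. *Ckmt2* also had CCAAT at 145 and, on the other strand, at 69 bases before the start, and 4 matches to CANNTG in all, the CAGCTG among them. Of the promoters not printed, 1 of *Alpl*, which was higher in HFD, also held CAGCTG, 176 bases before the start, and that of *Gamt* held none of the motifs. Of 32851 RefSeq promoters of this length, 13% hold CAGCTG, 66.2% hold CANNTG, 12.4% hold TATAAA and 33.8% hold CCAAT. Promoters were listed for 7 of the 8 members, and that of *Slc6a8* is not shown.

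In each mouse the kinases were set against each other in TPM. *Ckb* made up 93.1%, 78.2% and 99.9% of the summed kinase TPM in HFD-fed mice 1 to 3 and 2.35%, 1.48% and 14.7% in LFD-fed mice 1 to 3. *Ckm* made up 80.2% to 94.7% in LFD-fed and 0.106% to 20.9% in HFD-fed mice, and *Ckmt2* 2.97% to 5.13% and 0% to 0.773%. The mean share of *Ckb* was 90.4 ± 11.1% in HFD against 6.17 ± 7.38% in LFD (SD, n = 3 each), a difference of 84.2 percentage points. The exact two-sided permutation test gave p = 0.1, the smallest that 3 against 3 mice allow, and 0.2 after Benjamini-Hochberg adjustment over 4 such tests. The main kinase transcript was thus *Ckm* in each LFD-fed mouse and *Ckb* in each HFD-fed mouse. The summed kinase level was 55.2, 125.5 and 56.6 TPM in HFD-fed and 901, 1878 and 302.6 TPM in LFD-fed mice 1 to 3, so it was lower in HFD in spite of the higher *Ckb*.

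**Figure D2:**
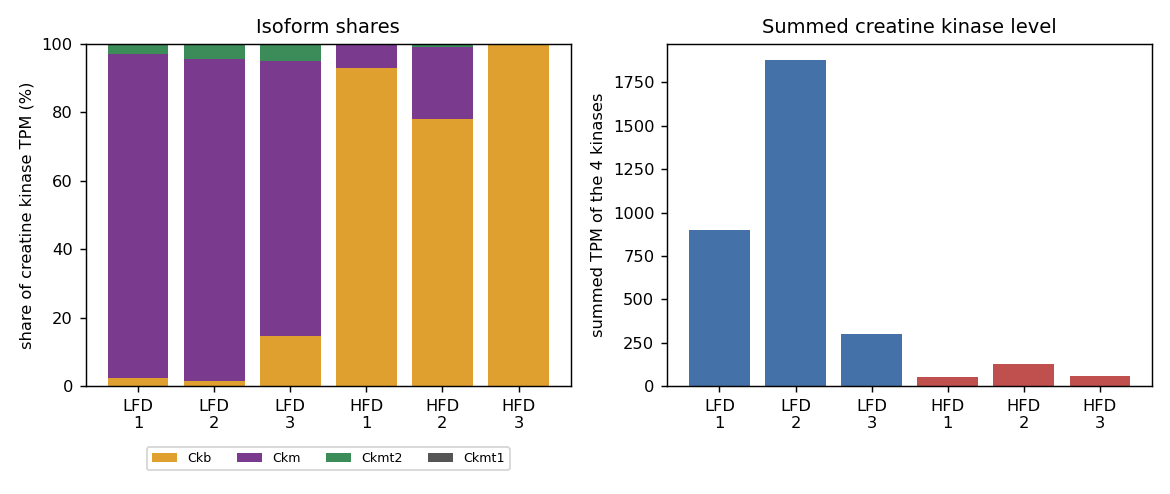
Left, stacked bars of the percentage of summed creatine kinase TPM from each of 4 kinase genes in each mouse, and right, bars of that summed TPM from 0, with LFD in blue and HFD in red. *Ckm* fills at least 80.2% of each LFD bar and *Ckb* at least 78.2% of each HFD bar, and each LFD sum is above each HFD sum.

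Skeletal muscle markers were measured beside *Ckm* and *Ckmt2*, because both genes encode muscle forms of the kinase. Of 20 markers, 19 were lower at an unadjusted p under 0.05 and 0 higher, 19 were lower in each HFD-fed mouse than in any LFD-fed mouse in log2 CPM, and the median log2 fold change was -6.05, where the median of all tested genes was -0.05. DESeq2 called 18 of them lower, against 1.53% of all genes with an adjusted p. At an unadjusted p under 0.05 by edgeR, 6.62% of all tested genes were lower. In log2 CPM, 9.23% of all tested genes were below and 6.72% above without overlap. For this list 16 of the 20 genes are also in the changed genes of the study, so the list is not independent evidence of a direction. The exception was *Mb*, myoglobin, at 50.2, 152 and 6.2 TPM in HFD-fed and 95.03, 326 and 63.9 TPM in LFD-fed mice, with a log2 fold change of -0.98. No marker was at 0 in all mice, but *Myh7*, the slow myosin, was listed at 0 in HFD-fed mice 2 and 3. The part of muscle tissue in the difference of *Ckm* and *Ckmt2* was not tested, and the marker values move with it.

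Relative to the mean log2 CPM of the muscle markers, *Ckm* was at -0.20, 0.72 and -1.95 in HFD-fed and at 1.51, 0.81 and 0.75 in LFD-fed mice 1 to 3. The difference was -1.5 log2 units (exact two-sided permutation p = 0.1, adjusted 0.2). On the same log2 CPM scale, *Ckm* itself had a mean of 1.31 in HFD and 8.92 in LFD. The -6.50 given above is edgeR's fitted value and not a difference of such means. Relative to the markers, the difference was -0.77 without HFD-fed mouse 3, and with a prior count of 0.5 it was -1.60 (exact permutation p = 0.3). It was -2.29 without the markers that the study names (exact permutation p = 0.2), which removes 16 of the 20 markers. *Ckmt2* was at -3.40, -3.24 and -2.83 in HFD-fed and at -2.81, -2.93 and -2.56 in LFD-fed mice. Its HFD minus LFD difference was -0.39 (exact two-sided permutation p = 0.2, adjusted 0.267), and on log2(TPM + 1) it was 0.61, the opposite direction.

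**Figure D3:**
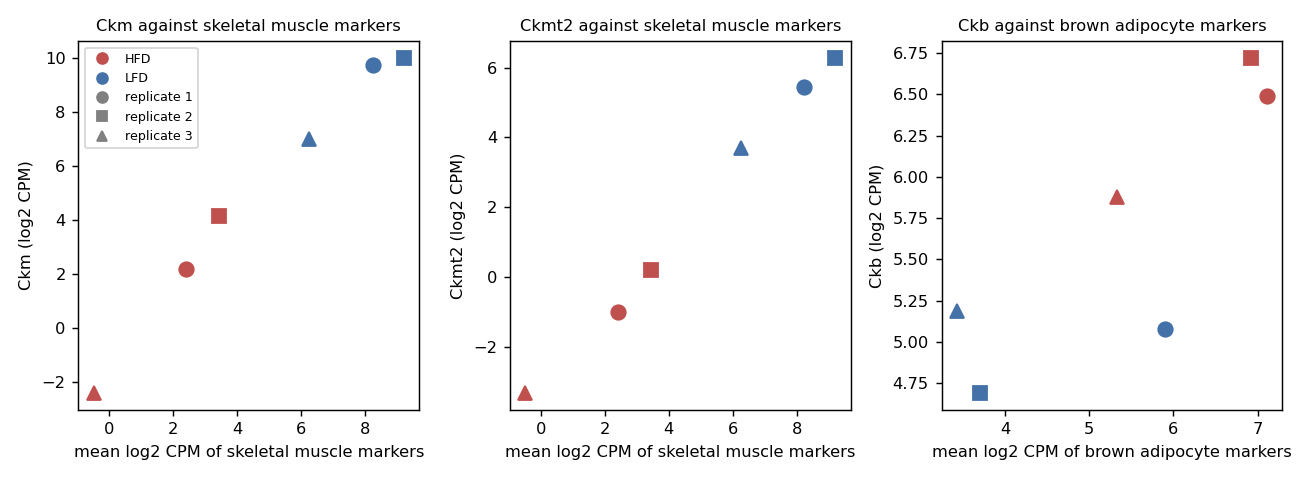
Log2 CPM of *Ckm* and *Ckmt2* against the mean log2 CPM of 20 skeletal muscle markers, and of *Ckb* against that of 13 brown adipocyte markers, 1 point a mouse, with LFD in blue and HFD in red and a symbol for each replicate number. Both muscle kinases are higher where the muscle markers are higher over all mice. *Ckb* is above in HFD, and the brown adipocyte marker means are mostly above in HFD too. These means overlap only in that LFD-fed mouse 1 lies above HFD-fed mouse 3. Relative to these markers, *Ckb* overlaps between the diets.

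For *Ckb*, brown adipocyte markers were measured in the same way. Of 13 markers, 3 were higher at an unadjusted p under 0.05 (*Dio2*, *Prdm16* and *Ppara*), 0 were lower, and the median log2 fold change was 1.62. With the replicate block 9 were higher. Of all tested genes, 3.86% were higher without the block and 8.75% with it. Their summed level was 1914 to 7467 TPM in HFD-fed and 342.6 to 2127 TPM in LFD-fed mice. *Ucp1* did not overlap between the diets, with a log2 fold change of 3.67 (SE 1.56, adjusted p = 0.48 by edgeR). Relative to the mean of this list, *Ckb* was at -0.62, -0.20 and 0.55 in HFD-fed and at -0.82, 0.99 and 1.76 in LFD-fed mice 1 to 3. These ranges overlapped, and the difference was -0.73 (exact two-sided permutation p = 0.5). It was -1.47 without LFD-fed mouse 1 and -0.18 without LFD-fed mouse 3. The part of brown adipocyte content in the difference of *Ckb* was not tested.

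*Gatm* (chr2:122594467-122611303, minus strand), the enzyme of the first step of creatine synthesis, was at 4.64, 4.68 and 4.51 TPM in HFD-fed and at 2.47, 10.5 and 4.43 TPM in LFD-fed mice 1 to 3. The HFD-fed mice were close together and lay inside the LFD range. The log2 fold change was 0.10 (SE 0.44), with an adjusted p of 0.97 by edgeR, and its direction depended on the mice and the scale used.

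*Gamt* (chr10:80258151-80261012, minus strand), the methyltransferase of the second step, was at 12.5, 11.5 and 13.3 TPM in HFD-fed and at 26.7, 27.4 and 24.3 TPM in LFD-fed mice 1 to 3. In TPM the diets did not overlap and the spread within each was small, with means of 12.4 ± 0.928 and 26.2 ± 1.64 TPM (SD, n = 3 each). Counting *Gamt*, 3 members were below and 2 above without overlap in TPM, where 11.6% and 1.65% of all tested genes were. In CPM after TMM scaling the diets did overlap, at 13.9, 7.31 and 8.17 CPM in HFD-fed and 26.2, 16.2 and 12.0 CPM in LFD-fed mice. The log2 fold change was -0.89 (SE 0.39), with an unadjusted p of 0.0608 and an adjusted p of 0.501 by edgeR. With the replicate block it was -0.87 (SE 0.21), with an unadjusted p of 0.01 and an adjusted p of 0.148. The difference of log2(TPM + 1) was -1.01, with an unadjusted p of 0.0112 and an adjusted p of 0.363 by limma, on a scale on which the median of all genes was -0.18. The TPM ratio of *Gamt* to *Gatm* was 2.45 to 2.96 in HFD-fed and 2.61 to 10.8 in LFD-fed mice, and these ranges overlapped.

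*Slc6a8* (chrX:73673150-73682502, plus strand), the creatine transporter, was at 17.7, 29.3 and 34.7 TPM in HFD-fed and at 8.91, 23.6 and 35.7 TPM in LFD-fed mice 1 to 3. The diets overlapped, and mouse 1 was lowest in both. Its change on the log2 scale was 0.39 (SE 0.29), with an adjusted p of 0.736 by edgeR.

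*Alpl* (chr4:137741733-137796384, minus strand), the tissue-nonspecific alkaline phosphatase, was at 6.8, 21.4 and 7.84 TPM in HFD-fed and at 3.07, 2.32 and 1.11 TPM in LFD-fed mice 1 to 3. The HFD-fed mice were all above the LFD-fed mice, on 217 to 532 reads against 12 to 81 reads. In LFD-fed mouse 3 RSEM used an effective length of 904 bases, against 1392 to 1597 bases in the other mice. The TPM of that mouse is thus higher for the same reads. The log2 fold change was 2.61 (SE 0.79), with an unadjusted p of 0.0134 and an adjusted p of 0.323 by edgeR, and DESeq2 gave 2.59 with an adjusted p of 0.0248. It was 3.54 without LFD-fed mouse 1, 2.13 without LFD-fed mouse 3 and 2.09 without HFD-fed mouse 2. None of the 75-base windows of *Gatm*, *Gamt*, *Slc6a8* or *Alpl* occurs letter for letter in a transcript of another gene. The search misses inexact matches. Expected counts of *Slc6a8* were not whole numbers, such as 612.92 in HFD-fed mouse 1 and 308.39 in LFD-fed mouse 1, so its reads are not shown to be free of sharing.

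The members were then put in order by their mean TPM in each diet. In LFD-fed mice *Ckm* (954 ± 767 TPM) was first, followed by *Ckmt2* (41.7 ± 36.0), *Ckb* (31.1), *Gamt* (26.2), *Slc6a8* (22.8 ± 13.4), *Gatm* (5.80 ± 4.18), *Alpl* (2.17 ± 0.989) and *Ckmt1* (0.1), as mean TPM with its SD over 3 mice. By their ranges over the mice, *Ckm* was apart from *Ckmt2*, and *Alpl* from *Ckmt1*, while the neighbours between them overlapped. Within each LFD-fed mouse, however, *Slc6a8* was above *Gatm*. In HFD-fed mice *Ckb* (68.7) was first, followed by *Slc6a8* (27.2 ± 8.68), *Gamt* (12.4), *Alpl* (12.0 ± 8.16), *Ckm* (9.97 ± 14.2), *Gatm* (4.61 ± 0.0889), *Ckmt2* (0.4 ± 0.507) and *Ckmt1* (0.0533). At the top of this order *Ckb* was apart from *Slc6a8*, and *Slc6a8* from *Gamt*, while *Gamt* and *Alpl* overlapped. *Alpl*, *Ckm* and *Gatm* overlapped in turn, *Gatm* was apart from *Ckmt2*, and *Ckmt2* overlapped with *Ckmt1*.

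For *Ckb*, *Ckm* and *Gatm*, the tested genes with the most similar profile were taken by Pearson's r of log2 CPM over the 6 mice, a description that includes the difference between the diets and shares the libraries. *Ckm* was nearest to *Tnnt3* (r = 0.999), *Xirp2* (r = 0.999) and *Acta1* (r = 0.998), which encode a troponin, an actin-binding protein and the actin of skeletal muscle, and 158 genes had an r above 0.95. *Ckb* was nearest to Fam131c (r = 0.993), *Gabpa* (r = 0.992), a transcription factor subunit, and 4732419C18Rik (r = 0.987), with 29 genes above 0.95. Fam131c reached 4.37 TPM and 4732419C18Rik 0.43 TPM at most, and both are thus low. *Gatm* was nearest to *Cbfa2t3* (r = 0.958), Ccdc173 (r = 0.952) and *Htra4* (r = 0.949), with 2 genes above 0.95.

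Genes that supply creatine synthesis with arginine, glycine and methyl groups overlapped between the diets for the most part. Of 13 such genes 11 were tested, *Mat1a* and *Gnmt* being too low, and 1 was higher and 0 lower at an unadjusted p under 0.05, with a median log2 fold change of 0.17. The higher gene was *Shmt1*, the cytosolic enzyme that makes glycine from serine, at 10.0, 19.4 and 14.4 TPM in HFD-fed and 7.48, 7.34 and 6.26 TPM in LFD-fed mice, with a log2 fold change of 1.09 (SE 0.40, adjusted p = 0.409 by edgeR). *Oat*, ornithine aminotransferase, was lower in each HFD-fed mouse in log2 CPM, with a log2 fold change of -0.33. *Arg1*, arginase, was at 10.3, 40.0 and 62.8 TPM in HFD-fed and at 0.2, 0.87 and 89.1 TPM in LFD-fed mice, so LFD-fed mouse 3 was the highest of all. With the replicate block 3 genes of this list were higher. For this list and those below, the shares of all tested genes were 3.86% higher and 6.62% lower. With the block they were 8.75% and 8.76%.

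Genes that carry or interconvert adenine nucleotides and phosphate, which surround the kinases in mitochondria and cytosol, numbered 13, all tested. At an unadjusted p under 0.05, 1 was lower and 2 were higher, with a median log2 fold change of -0.19, and with the block 3 were lower and 1 higher. The lower gene was *Ampd1*, the AMP deaminase of skeletal muscle, at 0.36, 1.0 and 0 TPM in HFD-fed and 12.9, 53.8 and 5.62 TPM in LFD-fed mice. *Ampd1* had a log2 fold change of -5.73 (SE 1.32, adjusted p = 0.203 by edgeR, 4.89e-05 by DESeq2), in the range of the muscle kinases, and it was the only gene of the list that DESeq2 called. The higher genes were *Ak4*, a mitochondrial adenylate kinase (1.61, adjusted p = 0.463), and *Ampd3*, a deaminase of other tissues (0.45, adjusted p = 0.472). *Slc25a4*, the ATP and ADP exchanger of heart and muscle, had a log2 fold change of -0.89 and *Slc25a5*, its relative of other tissues, one of 0.07, both overlapping between the diets.

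Among relatives of the transporter and the phosphatase, 5 of 8 genes were tested, and 1 was higher and 0 lower at an unadjusted p under 0.05, with a median log2 fold change of -0.84. With the block 3 were lower and 1 higher. The other alkaline phosphatase genes *Alppl2*, *Alpi* and *Akp3* had at most 1 read in any mouse, so *Alpl* was the alkaline phosphatase gene detected in this tissue. *Phospho1*, a phosphatase of phosphocholine and phosphoethanolamine, was at 73.3, 117.5 and 30.1 TPM in HFD-fed and at 23.8, 10.8 and 6.7 TPM in LFD-fed mice, with a log2 fold change of 2.47 (SE 0.93, adjusted p = 0.425 by edgeR). *Slc16a12*, another creatine transporter, was at 2.14, 0.36 and 0.1 TPM in HFD-fed and at 6.49, 6.07 and 2.0 TPM in LFD-fed mice, with a log2 fold change of -2.07 (SE 1.25, adjusted p = 0.646 by edgeR). In log2 CPM both genes overlapped between the diets.

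**Figure D4:**
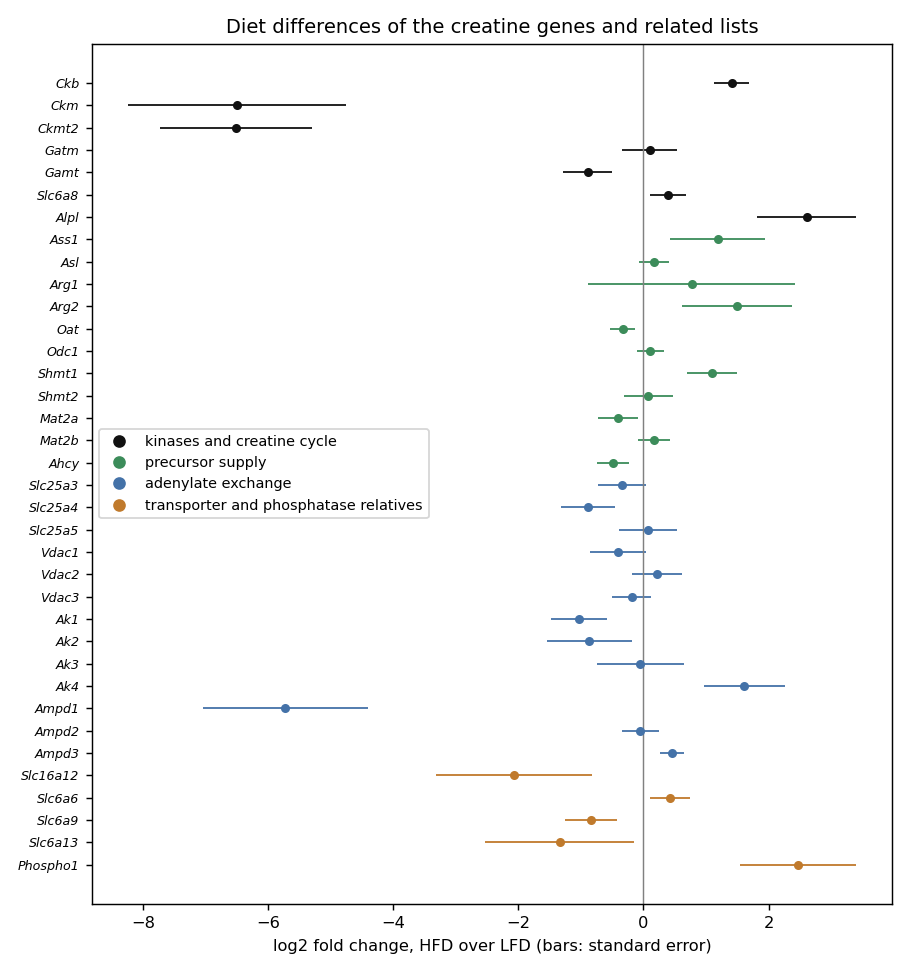
Log2 fold change, HFD over LFD, of 7 creatine genes and 29 genes of the related lists by edgeR, with standard errors as bars, coloured by list, and a line at 0. *Ckm* (-6.50), *Ckmt2* (-6.52) and *Ampd1* (-5.73) lie far to the left of all others, and *Alpl* (2.61), *Phospho1* (2.47), *Ak4* (1.61), *Arg2* (1.5) and *Ckb* (1.41) lie to the right.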

How the data were processed

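BAT RNA of 6 mice, grouped by diet from the labels, was compared. The authors trimmed the 75-base reads (Trimmomatic 0.36), aligned and counted them by RSEM 1.3.0 (GRCm38.p4, Ensembl 84) and tested with DESeq2 1.10.1. The deposited expected counts are estimated reads per gene, in which a read that matches several genes is shared, and they are not normalized. The deposited TPM values are divided by effective length and scaled to a fixed total per mouse, so that a few abundant genes move all others. The authors also deposited an interval of TPM and a standard deviation of the count, per the file headers, which are signal values and are not reported here. RSEM's effective length differs between mice for genes with several transcripts.

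Expected counts were rounded and tested in R 4.3.3 with edgeR 4.0.16 (TMM, quasi-likelihood test, edgeR's filter on low counts), with DESeq2 1.42.0 and limma 3.58.1 as alternatives. The thresholds were an adjusted p under 0.01 and a log2 fold change beyond 1.5, as in the study. Log2 CPM used a prior count of 2 and log2 TPM a pseudocount of 1. Other alternatives were RLE size factors, other filters, no mitochondrially encoded genes and each mouse left out. The tests were checked on simulated data. The biological coefficient of variation was 0.448. The counts of mice of a diet differed by a chi-square of 71.7 to 558 per degree of freedom, so none was a repeated library.

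The labels number the mice 1 to 3 in each diet and do not say what a number marks. The deviations from the diet means correlated in the 3 same-numbered pairs, with r of 0.498, 0.229 and 0.522. In the other pairs r ran from -0.528 to 0.0532. Deviations within a diet cancel out for each gene, so the other pairs are tied to the same-numbered pairs and are no separate contrast. Because of the same-numbered pairs, the replicate number was also used as a block, a choice made from these same data. All members and the genes of the lists are named, and for *Ckb*, *Ckm* and *Gatm* the 3 genes most like them. Members and lists were chosen with earlier results of these data known. Gene positions are from GENCODE M21 and promoters from RefSeq.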

Additional observations from a re-analysis of the deposited data

How the results depend on the processing

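edgeR called 0 genes in each direction under all its settings, and 0 with each mouse left out in turn, against 306 lower and 106 higher with DESeq2 and 1 higher with limma on log2(TPM + 1). *Ckm* (-6.51) and *Ckmt2* (-6.52) passed the thresholds with DESeq2 only. The sign of *Gatm* turned with limma on log2(TPM + 1), to -0.10, and without HFD-fed mouse 1 (-0.14), LFD-fed mouse 1 (-0.08) or LFD-fed mouse 3 (-0.14), with a range over the left-out mice of -0.14 to 0.67. *Ckmt2* relative to the muscle markers was -1.0 with a prior count of 0.5 and 0.61 on log2(TPM + 1). It was -1.18 without the markers that the study names, which removes 16 of the 20 markers. The causes were not tested. The other 139 values kept their direction and their side of the threshold. With 1 mouse left out, the log2 fold changes ran from 1.22 to 1.61 for *Ckb*, -8.20 to -5.92 for *Ckm*, -7.86 to -5.85 for *Ckmt2*, -1.23 to -0.52 for *Gamt*, 0.16 to 0.68 for *Slc6a8* and 2.09 to 3.54 for *Alpl*. A minimum of 10 counts in every sample left out *Ckm* and *Ckmt2*. Reads limit the HFD levels of *Ckm* and *Ckmt2*.

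The replicate numbers were used as a block, because same-numbered mice deviated together, a choice made from these same data. With this pairing 0 genes were called, the smallest adjusted p was 0.0102, 184 genes had an adjusted p under 0.05, and 3094 genes had an unadjusted p under 0.05, against 1851 without the block. The blocked log2 fold changes were 1.38 for *Ckb* (adjusted p = 0.125), -7.42 for *Ckm* (0.0483), -6.76 for *Ckmt2* (0.0224), 0.21 for *Gatm*, -0.87 for *Gamt* (0.148), 0.44 for *Slc6a8* and 2.91 for *Alpl* (0.117), and at an unadjusted p under 0.05 *Gamt* was the 1 member that passed with the block and not without it. At the thresholds on adjusted p and fold change no call of a member differed.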

Other observations

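Markers of other cell types of BAT were measured to set beside the creatine genes. Of all tested genes, 3.86% were higher and 6.62% lower at an unadjusted p under 0.05 by edgeR. With the replicate block these shares were 8.75% and 8.76%. Of 9 macrophage genes 3 were higher in HFD-fed mice at an unadjusted p under 0.05 by edgeR, 0 were lower, and their median log2 fold change was 0.44. These were *Adgre1*, *Cd68* and *Fcgr1*, a surface marker, a lysosomal protein and an Fc receptor, at log2 fold changes of 1.36, 1.72 and 2.06, and the summed level of the list overlapped between the diets, at 1956 to 3976 TPM in HFD-fed and 615.2 to 4488 TPM in LFD-fed mice. Of 8 endothelial genes 1 was higher, *Emcn* (0.88), and 0 were lower, with a median of 0.76 and summed levels of 110.9 to 448.4 and 152.4 to 285.6 TPM, and with the replicate block 1 was higher and 1 lower. Of 8 general adipocyte genes 0 passed in either direction, and 2 were lower with the block, with a median of -0.99. *Retn*, resistin, was at 159.5, 36.8 and 6.18 TPM in HFD-fed and at 1686, 1069 and 147.3 TPM in LFD-fed mice. Of 7 smooth muscle genes 0 passed, with a median of 0.15. Of 8 Schwann cell genes 1 was higher, *S100b* (3.57), and 1 lower, *Pmp22* (-0.95), with a median of -0.09. Whether any of these cell types bears on *Ckb* or *Alpl* was not tested.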
